A study of Mus musculus with 15 samples.

Results

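The nuclear genes for subunits of respiratory complexes II to V were followed in plantaris muscle of trained, detrained and untrained mice. They were the protein-coding genes whose symbols name succinate dehydrogenase (Sdha to Sdhd), complex III (Uqcr), cytochrome c oxidase (Cox4 to Cox8) or ATP synthase (Atp5), 46 of the 20406 genes in the table. Complex II held 4 of them, complex III 8, complex IV 17 and complex V 17. Complex IV included Cox7a2l, which is known for joining complexes III and IV into supercomplexes rather than as a classical subunit, and Cox5b-ps, which the table lists as protein-coding although its symbol marks a pseudogene.

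RNA from whole plantaris muscle of male HSA-GFP mice was sequenced, 3 libraries in each of 5 groups. In these mice a human skeletal actin promoter and a tetracycline-controlled switch drive a green histone in muscle fibre nuclei, and all groups carried it. Detrained muscle (9M_PoW+DT) came from mice that began progressive weighted wheel running, PoWeR, at 4 months of age, ran for 8 weeks and then spent 12 weeks without it, to 9 months of age. Untrained muscle of the same age was 9M_UT. Trained muscle (6M_PoW) was taken after the 8 weeks, at 6 months, beside untrained muscle of 6 months (6M_UT). A further group, 6M_POW_LD, has titles of trained muscle, replicates 4 to 6, with an LD identifier that the labels leave unexplained. The treatment label contradicted the title in 9 libraries: it names the other condition in the 6 libraries of 9 months, and calls the 3 LD libraries sedentary. Groups below follow the titles. The labels do not say whether replicates were separate mice, so the p-values cover no more than the spread among these libraries.

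The respiratory chain passes electrons from fuel to oxygen across the inner mitochondrial membrane and stores the energy as a proton gradient. Complex II takes electrons from succinate and is also an enzyme of the citric acid cycle. Complex III passes them to cytochrome c, complex IV passes them on to oxygen, and complex V uses the gradient to make ATP. All subunits of complex II are nuclear, whereas complexes III, IV and V also hold subunits from the mitochondrial genome. Several complex IV subunits have a form enriched in heart and skeletal muscle beside a general form: Cox6a2 beside Cox6a1, Cox7a1 beside Cox7a2 and, in rodents, Cox8b beside Cox8a. Endurance training is known to raise the mitochondrial content of skeletal muscle.

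The promoters of Cox7a1 and Cox8b, the muscle forms, and of Cox7a2 and Cox8a, the general forms, are shown because these pairs carry the isoform comparison and their windows differ in base composition. Each window runs from 250 bases before to 50 bases after the RefSeq gene start on GRCm38.p6, and is written on the strand of the gene. Capitals mark an ETS site (CCGGAAG) or an E-box (CAGCTG) on either strand.
Cox7a1, chr7:30183921-30184220, plus strand: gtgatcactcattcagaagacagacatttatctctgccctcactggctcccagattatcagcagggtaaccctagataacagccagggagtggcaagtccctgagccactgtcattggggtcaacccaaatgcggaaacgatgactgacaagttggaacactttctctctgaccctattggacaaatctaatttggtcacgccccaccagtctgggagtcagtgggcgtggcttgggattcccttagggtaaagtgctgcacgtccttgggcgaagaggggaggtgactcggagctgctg
Cox7a2, chr9:79759804-79760103, minus strand: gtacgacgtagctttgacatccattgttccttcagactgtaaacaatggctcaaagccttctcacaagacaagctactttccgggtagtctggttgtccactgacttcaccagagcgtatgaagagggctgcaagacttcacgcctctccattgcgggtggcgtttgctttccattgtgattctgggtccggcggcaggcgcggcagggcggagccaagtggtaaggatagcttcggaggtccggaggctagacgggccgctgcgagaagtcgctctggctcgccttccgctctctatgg
Cox8b, chr7:140900397-140900696, minus strand: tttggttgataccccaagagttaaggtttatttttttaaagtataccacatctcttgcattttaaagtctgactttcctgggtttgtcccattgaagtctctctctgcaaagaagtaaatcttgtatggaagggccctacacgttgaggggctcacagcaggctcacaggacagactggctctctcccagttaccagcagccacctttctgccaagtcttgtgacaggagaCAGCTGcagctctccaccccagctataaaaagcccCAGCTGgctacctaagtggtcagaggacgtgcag
Cox8a, chr19:7217567-7217866, minus strand: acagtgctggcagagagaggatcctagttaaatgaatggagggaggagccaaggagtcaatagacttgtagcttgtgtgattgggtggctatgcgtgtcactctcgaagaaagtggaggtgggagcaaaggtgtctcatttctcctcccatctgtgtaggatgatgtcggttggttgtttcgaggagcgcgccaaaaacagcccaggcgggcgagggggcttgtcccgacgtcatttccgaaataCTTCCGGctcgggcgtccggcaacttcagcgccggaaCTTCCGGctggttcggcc
The muscle forms held few CG dinucleotides, 7 in Cox7a1 and 2 in Cox8b, against 20 in Cox7a2 and 19 in Cox8a. RefSeq windows matched 35 of the 46 genes, with a median of 19 CG (2 to 43), beside a median of 7 over all 32851 promoters of the same length.
The search covered both strands of each window. A gene counted if any of its windows matched, and its CG count was the highest of them, while all promoters were counted window by window. An ETS site stood in 13 of the 35 (37.1%) and in 8.86% of all promoters, with 2 in Cox8a. The core of the NRF1 site (GCATGCGC) stood in 7 (20%), Sdhb, Uqcrc1, Uqcr11, Cox6a1, Atp5g2, Atp5k and Atp5l, against 2.71% of all promoters. The element of the oestrogen-related receptors (AAGGTCA) stood in 5 (14.3%), Sdhd, Atp5e, Atp5g3, Atp5k and Atp5l, against 4.72% of all. An E-box stood in 2 (5.71%), Cox8b, which has 2 of them, and Atp5b, against 16.3% of all promoters. The MEF2 site stood in none of the 35 and in 1.86% of all promoters. No window shown held more than 1 kind of motif. Such a match describes the letters of the window only.

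Library totals lay between 18865037 and 27688826 counts. Cox6b2, the form of subunit 6b known from testis, had 32 counts in all over 8 libraries and was not tested. The other 45 passed the filter on low counts. Levels below are CPM, counts scaled to a common library size. In CPM per kilobase of exon, Atp5b stood highest of the set, followed by Cox6a2, Atp5a1 and Cox4i1, at 1300.0, 900.1, 735 and 622. The sparsest tested genes were Cox4i2, with 10 to 53 counts a library, and Atp5g2, with 6 to 36. Fibre markers were abundant in every library: the fast and slow fibre genes summed to between 48912 and 76577 CPM. Of the marker lists for other cells, 5 of 6 adipocyte genes and all genes of the other lists were in the table, and no marker was at 0 in every library.

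Without the genes of the mitochondrial genome, the 46 genes together took 1.72, 1.70 and 1.42% of the counts in detrained and 1.59, 1.55 and 1.49% in untrained muscle at 9 months. At 6 months they took 1.83, 1.80 and 1.85% in LD, 1.95, 1.86 and 1.74% in trained and 1.61, 1.71 and 1.77% in untrained muscle. The 9-month untrained libraries all lay below the 6-month untrained ones, the trained and the 6-month untrained libraries overlapped, and 1 detrained library, replicate 3, was the lowest of the 15. With every gene given equal weight, the untrained libraries of 9 months lay below those of 6 months in each complex, and detrained replicate 3 was the lowest of the 15 in complexes III, IV and V. In whole muscle, fewer cells of a type and less RNA per cell cannot be told apart.

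**Figure D1:**
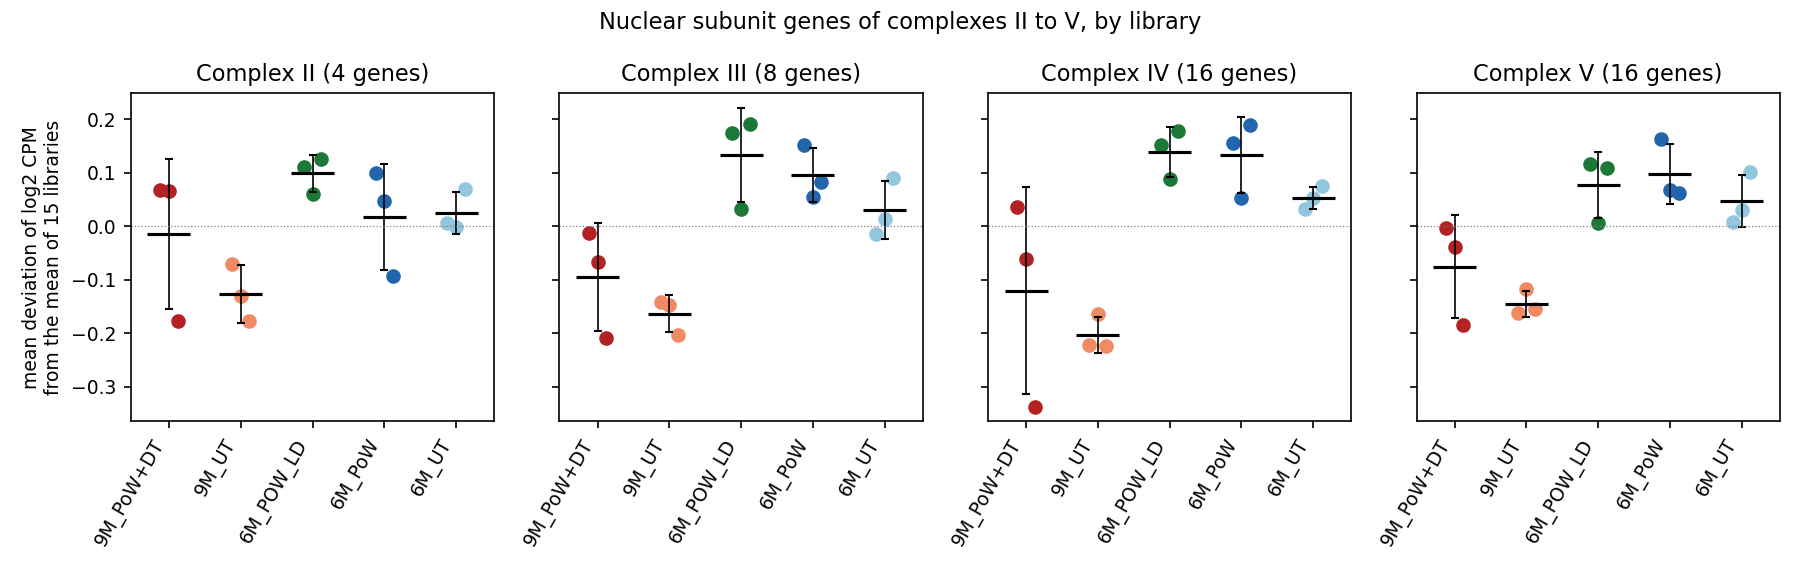
Mean deviation of log2 CPM from each gene's mean over 15 libraries, by complex (panels) and group (x axis). Points are libraries, the bar is the mean and the whisker the SD over 3 libraries. The 9-month untrained libraries lie below 0 in all 4 panels, and detrained replicate 3 stands lowest of its group in each; Cox6b2 and Atp5g2, which had fewer than 10 counts in some library, are left out.

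Trained and untrained muscle of 6 months were compared after 8 weeks of PoWeR in the trained group. None of the 45 passed the test, edgeR's quasi-likelihood test with Benjamini-Hochberg adjustment over all 14919 genes at an adjusted p under 0.05, and neither did any other gene (0% of all genes). DESeq2 and limma-voom also called 0 of the 45, and 112 and 2 of all genes. The median log2 fold change was -0.059 in complex II, 0.083 in III, 0.065 in IV and 0.066 in V, beside 0.0013 over all genes. Of the 45, 27 lay above 0 (50.2% of all genes) and 18 below (49.8%). At an unadjusted p under 0.05, 4 of the 45 were higher and 0 lower, against 4.73% and 5.02% of all genes. They were Cox7a1, Atp5b, Sdhb and Atp5g1. In 9 genes every trained library lay above every untrained one (7.89% of all genes), and in 1, Sdhd, below (8.28%). With library totals in place of scaled sizes 6 genes in place of 18 lay below 0.

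Detrained and untrained muscle of 9 months were compared to ask what was left 12 weeks after training. edgeR called 0 of the 45 genes (0.0201% of all genes), as did DESeq2, which called 30 of all genes, and limma-voom. The medians were 0.095 in complex II, 0.071 in III, 0.068 in IV and 0.055 in V, and 36 of 45 genes lay above 0 (50.9% of all genes) and 9 below (49.1%). All 4 genes of complex II and all 8 of complex III were among them. At an unadjusted p under 0.05, 3 genes were higher (3.22% of all genes) and 0 lower (3.29%): Sdhd, Atp5e and Atp5g3. The groups did not overlap in 3 genes, Atp5g1, Atp5j2 and Atp5k, all higher in detrained muscle (6.19% of all genes), and 0 were lower without overlap (5.7%). Detrained replicate 3 weighed on these values. In the full set 9 genes lay below 0; without replicate 3 it was 1, without detrained replicate 1 or 2 it was 19 or 15, without untrained replicate 1 it was 14, and with library totals as the scale it was 3. If the treatment label and not the title named the 9-month groups rightly, every sign here would turn round. Replicate 3 also had the highest levels of the adipocyte genes Lep and Adipoq, 16.9 and 14.5 CPM, and the smallest share of mitochondrial-genome counts, 16.0%; their part in these values was not tested.

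The detraining difference less the training difference was called in 0 of the 45 genes by edgeR (0.0268% of all genes), DESeq2 (111 of all genes) and limma-voom. At an unadjusted p under 0.05, 2 genes lay above 0 (4.79% of all genes) and 0 below (4.69%). They were Sdhd at 0.39 ± 0.13 and Atp5e at 0.30 ± 0.11 on the log2 scale, with adjusted p of 0.354 and 0.408. The medians were 0.15 in complex II, 0.018 in III, -0.0070 in IV and -0.011 in V. Of the 45 values 24 lay above 0 (50.6% of all genes) and 21 below (49.4%), 13 without detrained replicate 3, and 36 with the 9-month groups exchanged as their treatment label has them.

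Untrained muscle of 9 months was set against that of 6 months. All 45 genes had a lower value at 9 months (51% of all genes lay below 0 and 49% above), with medians of -0.14 in complex II, -0.20 in III, -0.22 in IV and -0.15 in V, beside -0.0053 over all genes. In 31 genes every 9-month library lay below every 6-month one (6.47% of all genes): 3 of complex II, 7 of III, 10 of IV and 11 of V. No gene was higher without overlap (5.34% of all genes). At an unadjusted p under 0.05, 22 genes were lower (3.51% of all genes) and 0 higher (3.21%). After adjustment edgeR and limma-voom called 0 of the 45 (edgeR called 0.0134% of all genes). DESeq2 called 4 of the 45, Cox8b, Cox7a1, Atp5k and Atp5e, and 58 of all genes. The count of genes below 0 stayed between 42 and 45 when each library was left out, and was 42 when the detrained libraries took the place of the 9-month untrained ones, with medians of -0.039, -0.093, -0.13 and -0.078 in complexes II to V. The comparison shares its 9-month libraries with detraining and its 6-month ones with training. Of the 11 marker lists, 5 separated the ages without overlap, all higher at 9 months. Summed macrophage markers were 33.5 to 36.1 CPM at 9 months and 25.5 to 27.5 CPM at 6 months, and fibro-adipogenic markers 324 to 332 CPM at 9 months and 255 to 278 CPM at 6 months. Adipocyte markers were 109 to 115 CPM at 9 months and 97.1 to 102 CPM at 6 months, and satellite cell markers 2.26 to 3.27 CPM at 9 months and 1.46 to 2.05 CPM at 6 months. Most of the adipocyte sum was Fabp4, with means of 101 CPM at 9 months and 90.3 CPM at 6 months. The means of Adipoq and Plin1 were also higher at 9 months, while those of Lep and Cidec were lower. Markers of all fibres were 37171 to 39925 CPM at 9 months and 36404 to 36998 CPM at 6 months. Their part in these values was not tested. Library identifiers also changed with age, and age and library series cannot be told apart.

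**Figure D2:**
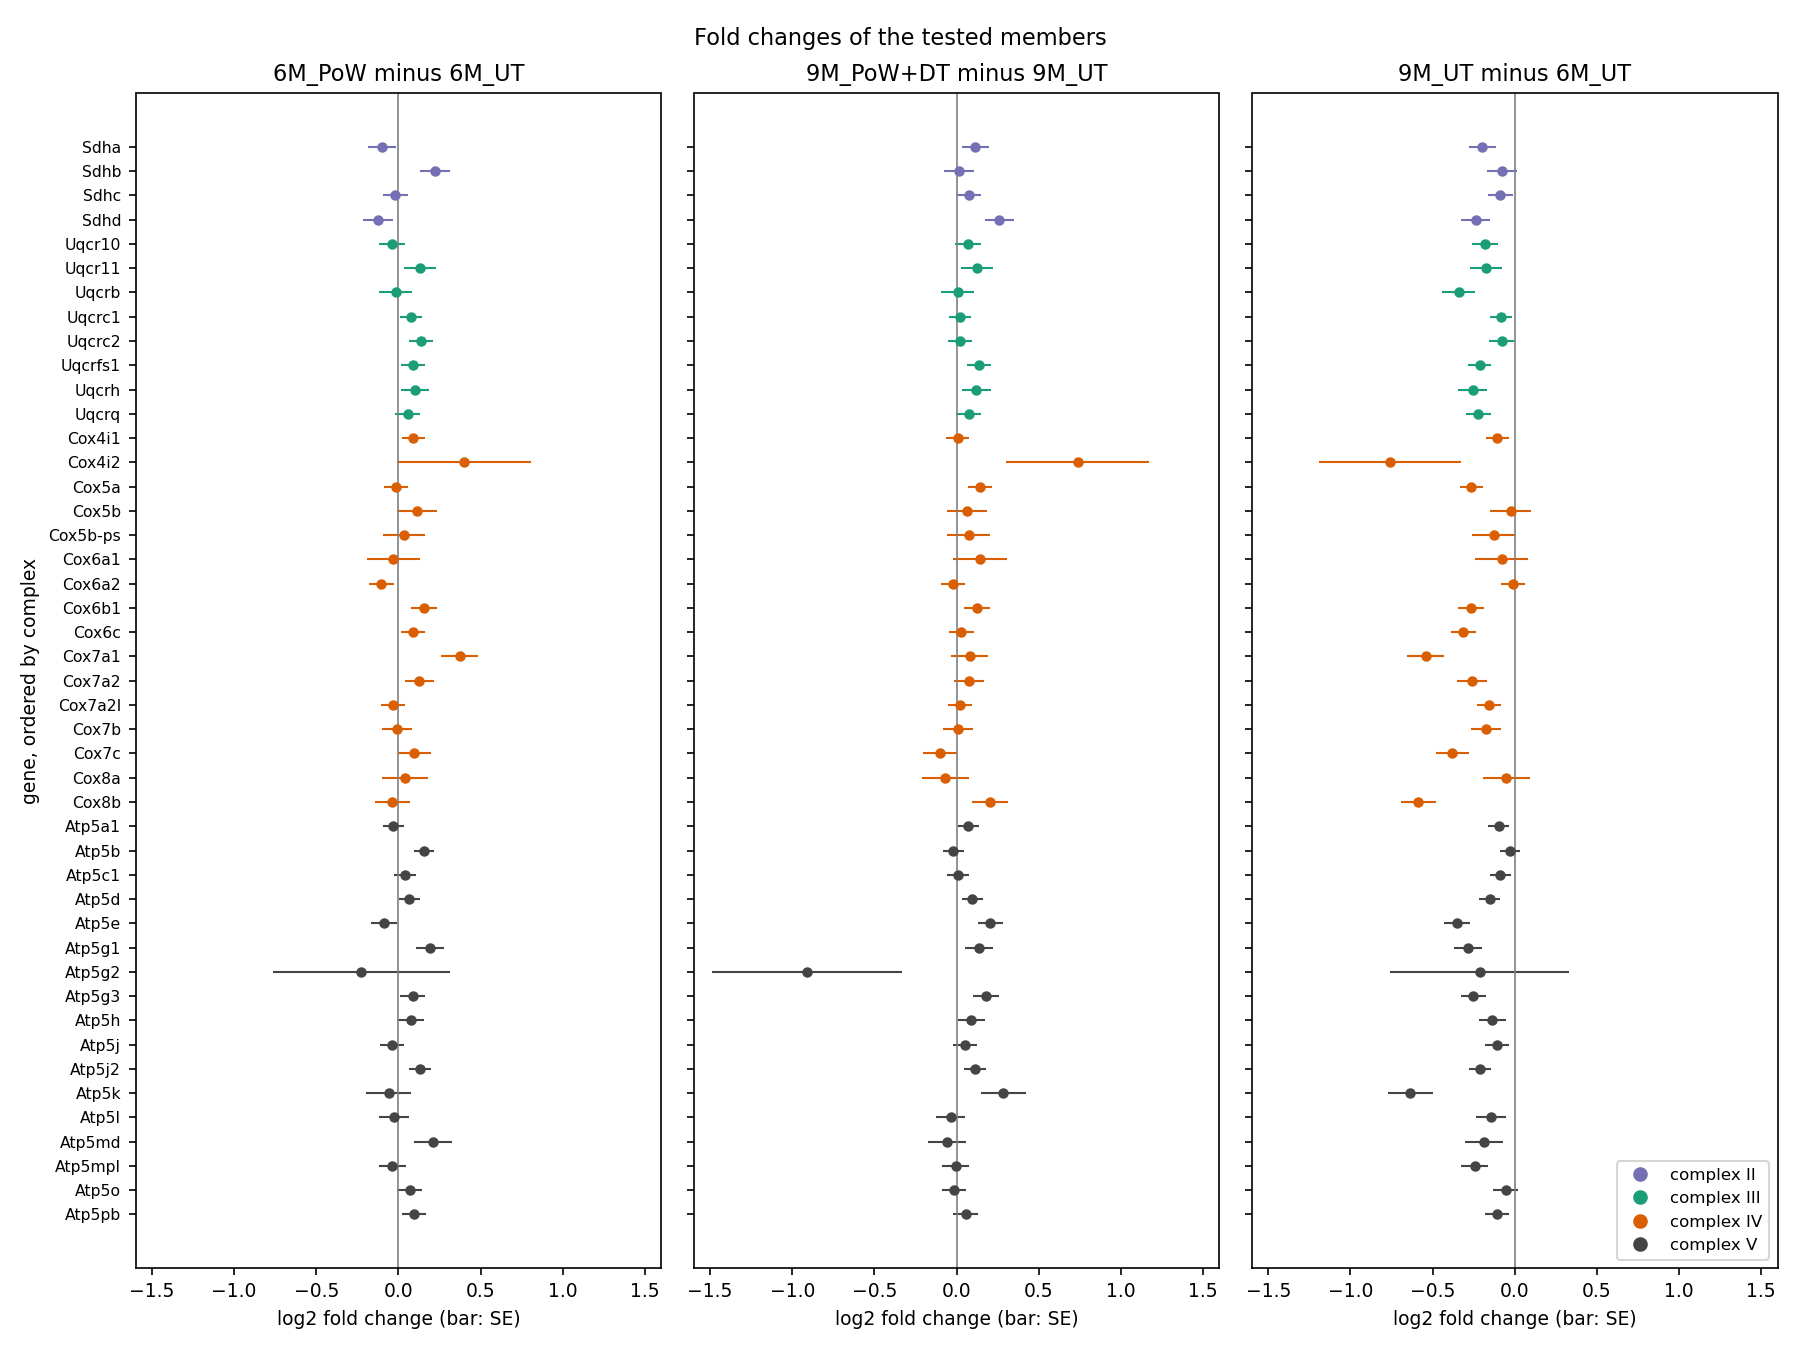
Log2 fold change of the 45 tested genes (rows, coloured by complex) in trained against untrained muscle at 6 months (left), detrained against untrained muscle at 9 months (centre) and untrained muscle of 9 against 6 months (right). Bars are the SE of the fit; in the right panel all 45 points lie below 0, with Cox8b at -0.59, Atp5k at -0.64 and the sparse Cox4i2 at -0.76.

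The LD libraries were compared with both other 6-month groups. Against untrained muscle edgeR called 0 of the 45 (4.99% of all genes), limma-voom 0 and DESeq2 1, Atp5b, where DESeq2 called 1190 of all genes. At an unadjusted p under 0.05, 5 genes were higher (9.72% of all genes), Atp5b, Cox7a2, Cox7a1, Uqcr11 and Cox5a, and 1 lower (10.3%), Atp5g1. The medians were 0.086 in complex II, 0.13 in III, 0.069 in IV and 0.041 in V, and 31 genes lay above 0 (51.2% of all genes) and 14 below (48.8%). Without overlap 6 were higher (12.6% of all genes), Uqcrc2, Uqcrfs1, Cox6b1, Cox7a2, Atp5b and Atp5o, and 1 lower (12.7%), Atp5c1. Against trained muscle 1 of the 45 was called (2.4% of all genes), Atp5g1, which was lower in LD. That share is close to the background. At an unadjusted p under 0.05, 3 genes were higher (7.09% of all genes) and 1 lower (7.18%), and 23 lay above 0 (49.8%) and 22 below (50.2%). Without overlap 3 were higher (10.7% of all genes), Sdha, Sdhd and Cox5a, and 3 lower (10.7%), Atp5c1, Atp5g1 and Atp5j2.

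Marker lists differed in LD too, and their part in its values was not tested. Against untrained muscle of 6 months 6 of the 11 lists were higher in LD without overlap. Pericyte and smooth muscle markers summed to 388 to 415 CPM in LD and 334 to 339.7 CPM in untrained muscle, fibro-adipogenic markers to 335 to 423 CPM in LD and 255 to 278 CPM in untrained muscle, and macrophage markers to 38.3 to 49.5 CPM in LD and 25.5 to 27.5 CPM in untrained muscle. The others were markers of all fibres (40829 to 43972 CPM in LD, 36404 to 36998 CPM in untrained muscle), satellite cells (2.23 to 2.66 CPM in LD, 1.46 to 2.05 CPM in untrained muscle) and Schwann cells (23.1 to 64.0 CPM in LD, 17.0 to 19.99 CPM in untrained muscle). Within the list for all fibres Acta1 was higher in every LD library (22951 to 24987 against 18907 to 19451 CPM), while Ckm and Des overlapped. Against trained muscle 1 list separated, fast and slow fibre genes, at 57178 to 65040 CPM in LD and 48912 to 54925 CPM in trained muscle. LD replicate 6 stood apart in red cell genes, at 3080 CPM with 1028 CPM as the next highest of the 15 libraries, and LD replicate 5 in Schwann genes, at 64.0 CPM with 25.7 CPM next.

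Complex II oxidises succinate in the matrix, and it is the 1 complex of the 4 with no subunit from the mitochondrial genome. Sdha, the flavoprotein that binds succinate, had 804, 812 and 697 CPM in detrained and 679, 763 and 695 CPM in untrained muscle at 9 months, and 879.8, 820.5 and 864 CPM in LD, 815, 795 and 677 CPM in trained and 843, 795 and 811 CPM in untrained muscle at 6 months. The 9-month untrained libraries lay below the 6-month untrained ones, with a log2 fold change of -0.20 ± 0.083 and an adjusted p of 0.712 in edgeR's test. Sdhb, the iron-sulphur subunit, had 282, 266 and 226 CPM in detrained and 283, 240.1 and 246 CPM in untrained muscle at 9 months, and 287, 305 and 283 CPM in LD, 331, 326 and 291 CPM in trained and 262, 260.0 and 289.7 CPM in untrained muscle at 6 months. All 3 trained libraries lay above the 6-month untrained ones (0.22 ± 0.092, adjusted p = 0.443 in edgeR's test), and the detrained and untrained libraries of 9 months overlapped (0.012 ± 0.092).

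Sdhd, a membrane anchor of complex II, had 216, 203 and 169.8 CPM in detrained and 179, 161 and 153 CPM in untrained muscle at 9 months, and 212, 193 and 231 CPM in LD, 183, 179.8 and 169 CPM in trained and 184, 193 and 203 CPM in untrained muscle at 6 months. The LD libraries lay above the trained ones (0.26 ± 0.091, adjusted p = 0.165, edgeR). It was the 1 gene of the set whose trained libraries all lay below the untrained ones (-0.12 ± 0.090), while its value in detrained against untrained muscle was 0.26 ± 0.090, with the smallest p of the set there (unadjusted 0.0105, adjusted 0.646, edgeR). At 9 months its libraries overlapped, detrained replicate 3 lying below untrained replicate 1. The other anchor, Sdhc, had values of -0.018 ± 0.074 after training, 0.074 ± 0.074 after detraining and -0.087 ± 0.074 between the ages.

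The core of complex III faces the matrix, and the Rieske protein carries electrons towards cytochrome c. Uqcrc1, a core protein, had 637, 638 and 594 CPM in detrained and 600.0, 627 and 614 CPM in untrained muscle at 9 months, and 701, 647 and 667 CPM in LD, 728, 703 and 630.0 CPM in trained and 659, 640.3 and 653 CPM in untrained muscle at 6 months. Uqcrc2, the other core protein, had 372, 389 and 345 CPM in detrained and 377, 350.1 and 364 CPM in untrained muscle at 9 months, and 439.9, 437 and 403 CPM in LD, 456, 431 and 379.8 CPM in trained and 383, 373 and 396 CPM in untrained muscle at 6 months. Over the comparisons of groups their log2 values ran from -0.085 to 0.15; only Uqcrc1 between the ages (lower) and Uqcrc2 in LD against untrained muscle (higher) did not overlap. Uqcrfs1, the Rieske iron-sulphur protein, had 412, 425 and 388 CPM in detrained and 389, 369.6 and 356 CPM in untrained muscle at 9 months, and 490.4, 454 and 476 CPM in LD, 489.7, 459.8 and 424 CPM in trained and 421, 419 and 452 CPM in untrained muscle at 6 months. All 3 of its 9-month untrained libraries lay below the 6-month ones (-0.21 ± 0.071, adjusted p = 0.550, edgeR), and its LD libraries all lay above them (0.14 ± 0.068).

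The small subunits of complex III had values further from 0 between the ages than its core proteins. Uqcrb, which helps bind ubiquinone, had 66.8, 54.6 and 50.9 CPM in detrained and 58.0, 56.0 and 57.8 CPM in untrained muscle at 9 months, and 84.9, 74.4 and 79.8 CPM in LD, 73.4, 66.4 and 75.2 CPM in trained and 68.6, 68.6 and 80.1 CPM in untrained muscle at 6 months. Its value between untrained muscle of 9 and 6 months, -0.34 ± 0.10, was the farthest from 0 in complex III (adjusted p = 0.493, edgeR), and no 9-month library reached a 6-month one. Uqcr11, a small membrane subunit, had 94.9, 90.2 and 73.2 CPM in detrained and 82.6, 80.2 and 74.9 CPM in untrained muscle at 9 months, and 107, 90.2 and 122 CPM in LD, 94.2, 91.9 and 108 CPM in trained and 84.1, 92.9 and 91.4 CPM in untrained muscle at 6 months. Its LD libraries overlapped the untrained ones (0.25 ± 0.11, adjusted p = 0.204, edgeR). Uqcr10, Uqcrh and Uqcrq, the other small subunits, had values of -0.18, -0.26 and -0.22 between the ages, again without overlap.

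Complex IV has catalytic subunits from the mitochondrial genome, and nuclear subunits surround them. Cox4i1, the common form of subunit 4, had 475, 451 and 416 CPM in detrained and 423, 469 and 445 CPM in untrained muscle at 9 months, and 499.5, 483 and 504 CPM in LD, 541, 489.8 and 502 CPM in trained and 496, 466 and 477 CPM in untrained muscle at 6 months. Cox5b, on the matrix side, had 184, 169.9 and 135 CPM in detrained and 136, 184 and 148 CPM in untrained muscle at 9 months, and 203, 157 and 185 CPM in LD, 163, 159.8 and 193 CPM in trained and 156, 160.2 and 160.1 CPM in untrained muscle at 6 months. The groups compared overlapped in both, and their values between the ages were -0.11 ± 0.071 and -0.025 ± 0.12. Cox5a, which also lies on the matrix side, had 274, 255 and 234 CPM in detrained and 238, 232 and 221 CPM in untrained muscle at 9 months, and 321, 283 and 329 CPM in LD, 283, 261 and 278 CPM in trained and 265, 288 and 277 CPM in untrained muscle at 6 months. It was lower without overlap in 9-month than in 6-month untrained muscle (-0.26 ± 0.072, adjusted p = 0.400, edgeR) and higher without overlap in LD than in trained muscle (0.18 ± 0.074, adjusted p = 0.239, edgeR).

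Cox7c, a small subunit of complex IV, had 81.7, 71.9 and 58.1 CPM in detrained and 70.5, 73.8 and 82.7 CPM in untrained muscle at 9 months, and 99.8, 98.1 and 105 CPM in LD, 108, 105 and 103 CPM in trained and 94.8, 98.2 and 102 CPM in untrained muscle at 6 months. Its 9-month untrained libraries lay below the 6-month ones (-0.38 ± 0.10) and its trained libraries above the untrained ones (0.097 ± 0.10), neither called. It was the gene of complex IV farthest below 0 in detrained against untrained muscle (-0.099 ± 0.10), a value that became 0.022 without detrained replicate 3. Cox7a2l, the supercomplex factor, had 85.6, 94.2 and 86.1 CPM in detrained and 83.5, 88.7 and 90.0 CPM in untrained muscle at 9 months, and 83.5, 95.5 and 94.6 CPM in LD, 93.8, 96.1 and 96.0 CPM in trained and 96.1, 92.5 and 104 CPM in untrained muscle at 6 months. Its detrained and untrained libraries overlapped at 9 months (0.021 ± 0.073), as did its LD and untrained libraries at 6 months (-0.097 ± 0.074). The 9-month untrained libraries of Cox7a2l lay below the 6-month ones (-0.16 ± 0.072, adjusted p = 0.724, edgeR). Cox6b1, Cox6c and Cox7b had values of -0.26 ± 0.079, -0.31 ± 0.076 and -0.18 ± 0.091 between the ages, with no overlap. Cox6b1 was also among the 9 genes higher in every trained library (0.16 ± 0.079).

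The muscle form Cox7a1 gave the clearest training difference of the set. It had 92.9, 87.3 and 63.7 CPM in detrained and 78.0, 80.5 and 72.7 CPM in untrained muscle at 9 months, and 134, 120.2 and 157 CPM in LD, 141, 139 and 155 CPM in trained and 104, 112 and 121 CPM in untrained muscle at 6 months. All trained libraries lay above all untrained ones at 6 months, by 0.37 ± 0.11 on the log2 scale (unadjusted p = 0.00480, adjusted p = 0.280, edgeR). The detrained libraries overlapped the untrained ones of 9 months (0.079 ± 0.11), and the 9-month untrained libraries lay below the 6-month ones (-0.54 ± 0.11, adjusted p = 0.182, edgeR, against 0.0142 in DESeq2). Without detrained replicate 3 in the fit, edgeR's adjusted p for that age difference was 0.0138. That library is in neither group compared, so its removal changed only the spread, scaling and filter shared over the fit.

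The general form Cox7a2 had 55.9, 48.2 and 44.1 CPM in detrained and 49.5, 47.1 and 44.3 CPM in untrained muscle at 9 months, and 62.0, 67.7 and 65.1 CPM in LD, 62.3, 62.6 and 59.4 CPM in trained and 54.5, 58.6 and 55.7 CPM in untrained muscle at 6 months. Its trained libraries also lay above the untrained ones, by less (0.13 ± 0.089), and the LD libraries did too (0.21 ± 0.085, adjusted p = 0.177, edgeR). The log2 ratio of Cox7a1 to Cox7a2 was 1.18, 1.15 and 1.39 in trained and 0.93, 0.94 and 1.11 in untrained muscle at 6 months, a difference of 0.25 ± 0.095 with no overlap. With 3 libraries against 3 the two-sided exact permutation test cannot go below p = 0.1, which this ratio reached, or 0.438 after adjustment over the 35 ratio tests made. In LD the log2 ratio was 1.11, 0.83 and 1.27. It overlapped both untrained muscle of 6 months (0.078 ± 0.14) and trained muscle (-0.17 ± 0.15).

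At 9 months the log2 ratio was 0.73, 0.86 and 0.53 in detrained and 0.66, 0.77 and 0.71 in untrained muscle, with overlap (-0.0069 ± 0.10). The 9-month untrained ratios all lay below the 6-month ones, the difference being -0.28 ± 0.068 (exact permutation p = 0.1). Per length of exon, Cox7a1 was 2.41-fold above Cox7a2 over the 15 libraries, between 1.78-fold and 3.22-fold, or 3.45-fold with the exons of all transcripts.

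Cox8b, the muscle form of subunit 8 in rodents, had the smallest p of the set between the ages. It had 106, 85.9 and 75.4 CPM in detrained and 74.2, 83.1 and 75.0 CPM in untrained muscle at 9 months, and 117, 99.3 and 129 CPM in LD, 109.8, 107 and 122 CPM in trained and 107, 122 and 119 CPM in untrained muscle at 6 months. All 9-month untrained libraries lay below the 6-month ones (-0.59 ± 0.11, unadjusted p = 5.87e-05, adjusted p = 0.0876, edgeR, against 0.00210 in DESeq2). That call passed in edgeR with no filter on low counts, at an adjusted p of 0.0211, and without detrained replicate 1 or 3 in the fit, at 0.0249 and 0.0224. Detrained libraries are in neither group compared, so their removal changed only the spread, scaling and filter shared over the fit. Trained and untrained libraries overlapped at 6 months (-0.039 ± 0.11), and so did detrained and untrained ones at 9 months (0.20 ± 0.11, adjusted p = 0.773, edgeR).

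Cox8a, the general form of subunit 8, had 17.4, 12.8 and 12.6 CPM in detrained and 13.7, 17.1 and 14.2 CPM in untrained muscle at 9 months, and 15.5, 15.7 and 15.5 CPM in LD, 15.1, 15.6 and 17.1 CPM in trained and 15.2, 14.5 and 16.8 CPM in untrained muscle at 6 months. Its groups overlapped in every comparison, and its value between the ages was -0.050 ± 0.14. The log2 ratio of Cox8b to Cox8a was 2.61, 2.75 and 2.58 in detrained and 2.44, 2.28 and 2.40 in untrained muscle at 9 months, higher in detrained muscle by 0.27 ± 0.068 with no overlap (exact permutation p = 0.1, adjusted 0.438). At 6 months it was 2.86, 2.78 and 2.84 in trained and 2.82, 3.07 and 2.83 in untrained muscle, with overlap (-0.081 ± 0.084). The 9-month untrained ratios were all lower than the 6-month ones, by a difference of -0.53 ± 0.093, the widest between the ages among the 7 pairs apart from the sparse Cox4i2/Cox4i1. Both differences use the same untrained libraries of 9 months. Per length, Cox8b was 10.2-fold above Cox8a over the 15 libraries, between 7.44-fold and 12.8-fold.

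Cox6a2, the muscle form of subunit 6a, had 662, 603 and 583 CPM in detrained and 589, 654 and 635 CPM in untrained muscle at 9 months, and 614, 559.8 and 635 CPM in LD, 599, 539.6 and 619.5 CPM in trained and 612, 616 and 662 CPM in untrained muscle at 6 months. No compared groups separated, and its value between the ages was -0.010 ± 0.075, the nearest to 0 of the 45. The general form Cox6a1 had 11.6, 15.7 and 9.98 CPM in detrained and 11.9, 10.4 and 11.5 CPM in untrained muscle at 9 months, and 11.5, 13.8 and 12.7 CPM in LD, 10.4, 12.1 and 12.4 CPM in trained and 11.2, 13.4 and 11.0 CPM in untrained muscle at 6 months. The log2 ratio of Cox6a2 to Cox6a1 overlapped in all 5 comparisons, with -0.078 ± 0.16 after training, -0.14 ± 0.22 after detraining and 0.065 ± 0.15 between the ages. Per length, Cox6a2 was 43.5-fold above Cox6a1 over the 15 libraries, between 32.2-fold and 52.8-fold, or 53.5-fold with the exons of all transcripts.

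**Figure D3:**
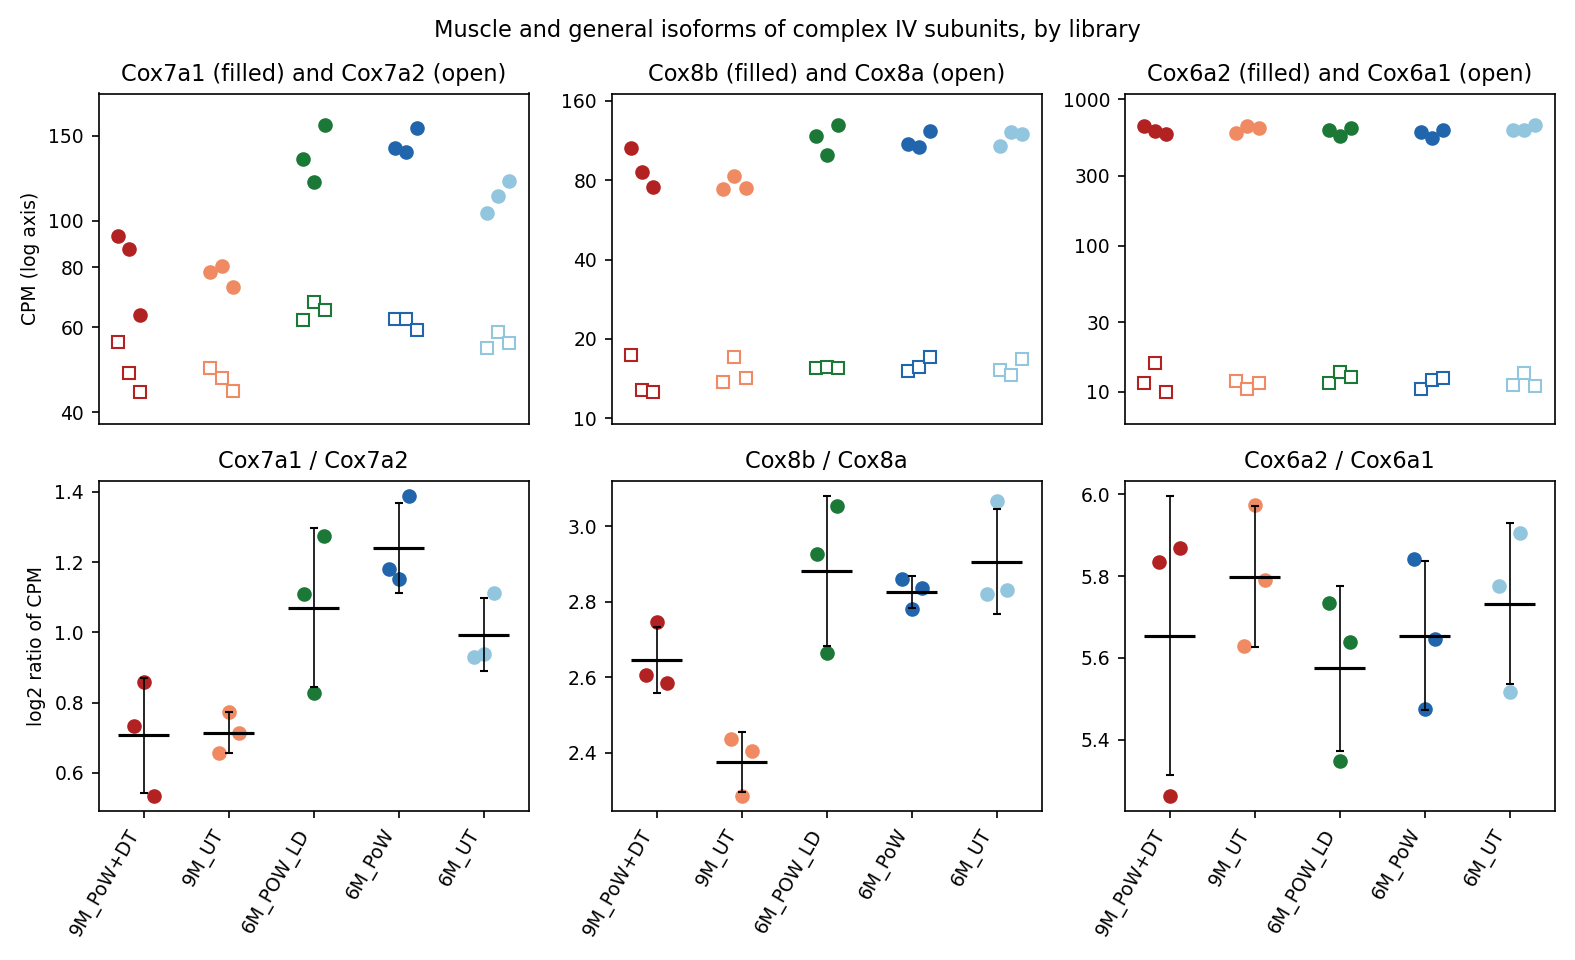
Top: CPM of the muscle form (filled circles) and the general form (open squares) of 3 complex IV subunits in each library, on log axes. Bottom: log2 ratio of muscle to general form, with mean and SD over 3 libraries. The Cox8b ratio is lowest in the 3 untrained libraries of 9 months (2.28 to 2.44). The Cox7a1 ratio is higher in the 3 trained libraries (1.15 to 1.39) than in untrained muscle of 6 months (0.93 to 1.11), and in LD (0.83 to 1.27) it overlaps both.

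Cox4i2, the form of subunit 4 known from lung and from low oxygen, was near the limit of detection. It had 1.48, 1.36 and 0.647 CPM in detrained and 0.840, 0.550 and 0.689 CPM in untrained muscle at 9 months, and 1.37, 1.99 and 1.09 CPM in LD, 1.92, 1.04 and 1.75 CPM in trained and 1.55, 0.920 and 1.09 CPM in untrained muscle at 6 months. Detrained replicate 3 lay near the untrained libraries of 9 months, and the age value of -0.76 ± 0.43 rested on 10 to 53 counts a library. Per length, its level was 0.00245 of that of Cox4i1, or 0.00497 with the exons of all transcripts. The ratio of Cox7a2l to Cox7a2 was lower in LD than in untrained muscle (-0.30 ± 0.077) and than in trained muscle (-0.15 ± 0.044), without overlap in either (exact permutation p = 0.1 for both).

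Complex V is made of a catalytic head in the matrix, a stalk and a rotor ring in the membrane. Atp5a1, the alpha subunit of the head, had 2157, 2130.2 and 2037 CPM in detrained and 1991, 2038 and 1994 CPM in untrained muscle at 9 months, and 2404, 2168 and 2337 CPM in LD, 2241, 2089 and 1968 CPM in trained and 2143, 2116 and 2182 CPM in untrained muscle at 6 months. Atp5b, the catalytic beta subunit, had 2384, 2371 and 2204 CPM in detrained and 2305, 2449.5 and 2301 CPM in untrained muscle at 9 months, and 2835, 2659.8 and 2638 CPM in LD, 2785, 2643 and 2587 CPM in trained and 2385, 2364 and 2451 CPM in untrained muscle at 6 months. The trained libraries of Atp5b lay above the untrained ones by 0.15 ± 0.063 (adjusted p = 0.441, edgeR), and its LD libraries did so by 0.18 ± 0.061 (adjusted p = 0.107 in edgeR and 0.0475 in DESeq2). Atp5a1 showed no such separation (-0.032 ± 0.063 and 0.10 ± 0.063). At 9 months Atp5b overlapped between detrained and untrained muscle (-0.019 ± 0.063).

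The central stalk turns inside the head. Atp5c1, its gamma subunit, had 489, 484 and 435 CPM in detrained and 460.3, 479.9 and 459.8 CPM in untrained muscle at 9 months, and 486, 479 and 463 CPM in LD, 537, 500.3 and 491 CPM in trained and 499, 490.2 and 498 CPM in untrained muscle at 6 months. Its LD libraries all lay below the trained ones (-0.099 ± 0.062) and below the untrained ones of 6 months (-0.059 ± 0.062), neither called. Atp5e, the epsilon subunit of the stalk, had 212, 196 and 179 CPM in detrained and 169, 179 and 161 CPM in untrained muscle at 9 months, and 190.0, 168 and 224 CPM in LD, 199.8, 198 and 212 CPM in trained and 201, 219.7 and 229 CPM in untrained muscle at 6 months. It was lower in 9-month than in 6-month untrained muscle without overlap (-0.35 ± 0.079, adjusted p = 0.231 in edgeR and 0.0311 in DESeq2). In detrained against untrained muscle its libraries overlapped (0.21 ± 0.079, adjusted p = 0.692, edgeR).

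Around the rotor lie small membrane subunits that help ATP synthase pair up in the cristae. Atp5k, subunit e, had 40.3, 33.5 and 29.6 CPM in detrained and 29.4, 28.0 and 27.6 CPM in untrained muscle at 9 months, and 57.6, 38.7 and 61.1 CPM in LD, 39.7, 36.6 and 50.6 CPM in trained and 37.8, 45.0 and 49.4 CPM in untrained muscle at 6 months. It was the gene of complex V farthest below 0 between the ages (-0.64 ± 0.14, adjusted p = 0.204 in edgeR and 0.0167 in DESeq2), and lay higher in every detrained than in every untrained library of 9 months (0.28 ± 0.14). Atp5j2, subunit f, had 172, 178 and 167 CPM in detrained and 159, 166 and 154 CPM in untrained muscle at 9 months, and 186, 185 and 198 CPM in LD, 207, 199.5 and 199.9 CPM in trained and 177, 180.5 and 196 CPM in untrained muscle at 6 months. It was higher without overlap in trained (0.13 ± 0.066) and in detrained muscle (0.11 ± 0.066) than in untrained muscle of the same age, neither called. Atp5md, known as DAPIT, had 46.4, 47.3 and 37.5 CPM in detrained and 44.1, 43.2 and 49.5 CPM in untrained muscle at 9 months, and 55.2, 58.7 and 51.5 CPM in LD, 66.5, 63.2 and 50.6 CPM in trained and 50.0, 48.9 and 57.1 CPM in untrained muscle at 6 months. Its trained and untrained libraries overlapped (0.21 ± 0.12).

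The c subunit, which forms the rotor ring, is encoded by 3 genes for the same mature protein. Atp5g1 had 111, 103 and 97.9 CPM in detrained and 96.8, 96.3 and 90.4 CPM in untrained muscle at 9 months, and 107, 88.8 and 105 CPM in LD, 144, 124 and 127 CPM in trained and 104, 118 and 124 CPM in untrained muscle at 6 months. Trained libraries lay above untrained ones at 6 months (0.19 ± 0.085, adjusted p = 0.477, edgeR), and detrained above untrained ones at 9 months (0.14 ± 0.086, adjusted p = 0.805, edgeR). Its 9-month untrained libraries lay below the 6-month ones (-0.28 ± 0.085). In LD it fell relative to trained muscle on the log2 scale (-0.39 ± 0.089, adjusted p = 0.0230, edgeR), the 1 call of the set, with no overlap. Against untrained muscle the LD libraries overlapped (-0.20 ± 0.089, adjusted p = 0.222, edgeR).

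The call for Atp5g1 ended without trained replicate 1 (-0.32, adjusted p = 0.124, edgeR), trained replicate 3 (-0.41, 0.0527), LD replicate 5 (-0.31, 0.122) or LD replicate 6 (-0.42, 0.0505). Atp5g3 had 299.8, 279.9 and 251 CPM in detrained and 252, 253 and 231 CPM in untrained muscle at 9 months, and 335, 296 and 344 CPM in LD, 316, 293 and 321 CPM in trained and 272, 300.4 and 303 CPM in untrained muscle at 6 months. It was lower without overlap in 9-month than in 6-month untrained muscle (-0.25 ± 0.078), and its LD and trained libraries overlapped (0.069 ± 0.079). The log2 ratio of Atp5g1 to Atp5g3 was -1.64, -1.74 and -1.72 in LD, -1.13, -1.24 and -1.34 in trained and -1.39, -1.35 and -1.29 in untrained muscle. LD lay below both other groups, with differences of -0.46 ± 0.067 from trained and -0.35 ± 0.041 from untrained muscle (exact permutation p = 0.1 for both).

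**Figure D4:**
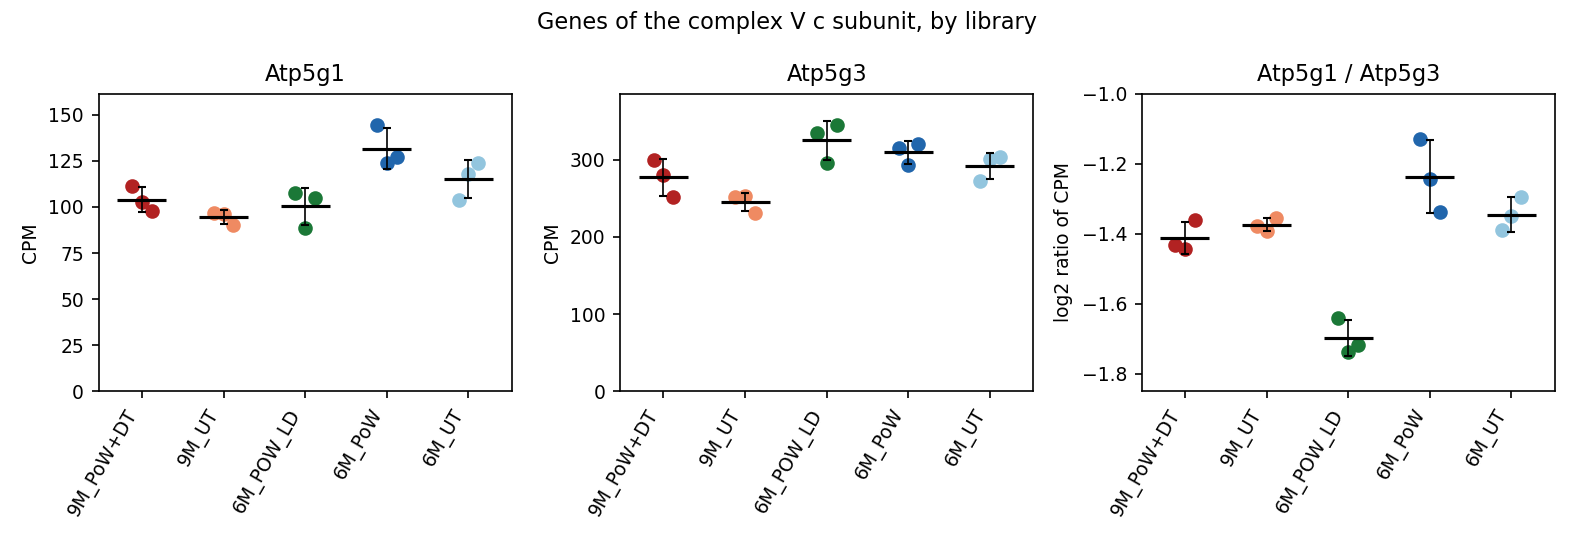
CPM of Atp5g1 (left) and Atp5g3 (centre) and the log2 ratio of Atp5g1 to Atp5g3 (right) in each library, with mean and SD over 3 libraries. The 3 LD libraries have the lowest ratios of the 15, between -1.74 and -1.64, while their Atp5g3 values overlap those of trained muscle.

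Atp5g2, the third gene of the c subunit, was barely detected, at 6 to 36 counts a library. It had 0.825, 0.282 and 0.462 CPM in detrained and 1.03, 1.38 and 0.591 CPM in untrained muscle at 9 months, and 1.16, 0.637 and 1.09 CPM in LD, 0.375, 0.998 and 1.57 CPM in trained and 1.55, 1.17 and 0.742 CPM in untrained muscle at 6 months. Its groups overlapped in every comparison, and its value in detrained against untrained muscle, -0.91 ± 0.58, had the widest error of the set. Of the other complex V genes, Atp5d, Atp5h, Atp5mpl and Atp5pb were lower without overlap in 9-month untrained muscle, with log2 fold changes of -0.15, -0.14, -0.24 and -0.11. Atp5j, Atp5l and Atp5o overlapped between the ages, at -0.11, -0.14 and -0.056. Cox5b-ps, which shares sequence with Cox5b, had values between -0.13 and 0.16 over the comparisons between groups.

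Many of these genes have short transcripts, and the age difference varied with exon length. The 19 genes with up to 750 bases of exon had a median log2 fold change of -0.25 between untrained muscle of 9 and 6 months, those over 750 and up to 1500 bases -0.16, and those over 1500 and up to 3000 bases -0.097. The 2 genes over 3000 bases departed from that order, with a median of -0.19. They were Sdhc at -0.087 and Atp5g1 at -0.28, so the departure rested on Atp5g1. All tested protein-coding genes of the same lengths had medians of -0.14, -0.065, -0.014 and 0.013, and 74.3% of the 191 shortest lay below 0. Length and log2 fold change correlated at Pearson's r = 0.34 and Spearman's rho = 0.34 over the 45 genes, which share libraries, and at Pearson's r = 0.0887 over 12707 coding genes, as a description. In each of these classes the median of the set lay below that of all coding genes. In detrained against untrained muscle the shortest class had a median of 0.079 in the set and 0.079 over all coding genes.

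**Figure D5:**
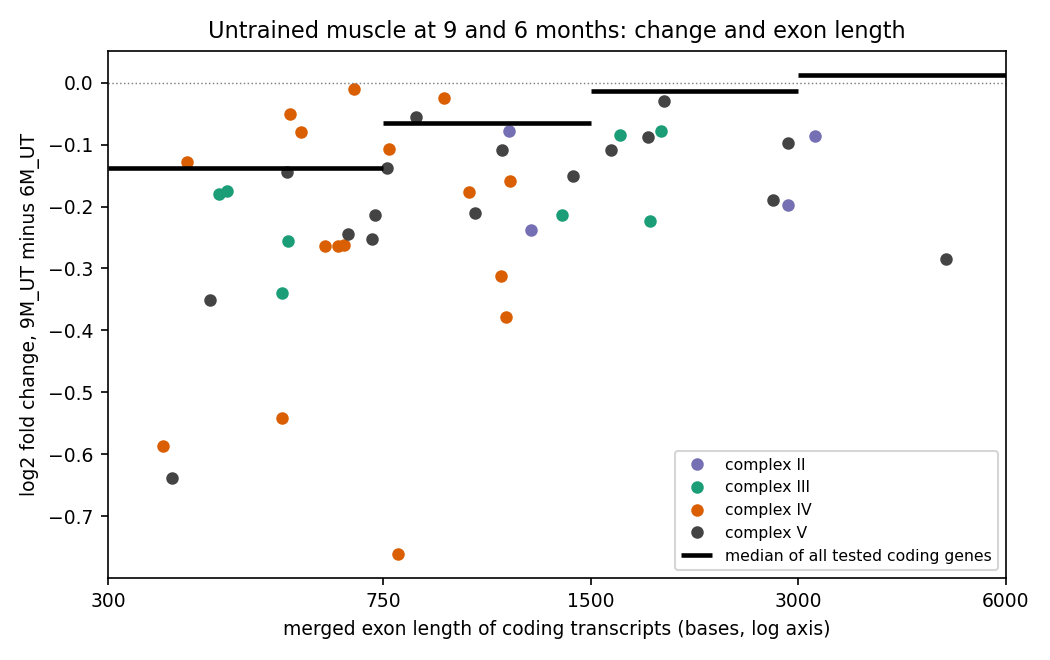
Log2 fold change of untrained muscle of 9 against 6 months for each of the 45 genes (y axis) against the merged exon length of its coding transcripts (x axis, log scale). Black lines are medians of all tested coding genes in each length class; the genes of up to 750 bases have a median of -0.25, and the line there stands at -0.14.

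The partners of these genes were followed as lists chosen for their role. The 6 subunits that the mitochondrial genome supplies to complexes III, IV and V are transcribed and counted apart from the nuclear set. In detrained against untrained muscle all 6 lay below 0, with a median of -0.26 and mt-Co2, a catalytic subunit of complex IV, at -0.32 ± 0.083, while 36 of the 45 nuclear genes lay above 0; 0 of the 6 were called (0.0201% of all genes), with 5 lower at an unadjusted p under 0.05 in edgeR (3.29%). Between untrained muscle of 9 and 6 months 5 of 6 lay above 0 (49% of all genes), with a median of 0.093. After training their median was 0.061. In detrained muscle the share of counts from the mitochondrial genome was 18.9, 18.6 and 16.0%, against 19.7, 19.5 and 21.7% in untrained muscle of 9 months.

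Assembly factors build the complexes without staying in them. Of 22 factors of complex IV, 21 were tested, and 16 lay below 0 in trained against untrained muscle (49.8% of all genes). In detrained against untrained muscle 17 lay above 0 (50.9% of all genes). In training 0 were called (0% of all genes), and in detraining 0 (0.0201%). Factors of complexes II, III and V, 14 genes, gave 0 calls in training, detraining and age (0%, 0.0201% and 0.0134% of all genes). In LD against untrained muscle, where 4.99% of all genes were called, Sdhaf2, an assembly factor of complex II, rose by 0.34 ± 0.089 (adjusted p = 0.0364, edgeR), as did cytochrome c1 (Cyc1), the haem subunit of complex III, by 0.26 ± 0.068 (adjusted p = 0.0362, edgeR). Ndufa4, now counted as a complex IV subunit, rose by 0.25 ± 0.069 there (adjusted p = 0.0397, edgeR), as did Taco1, a translational activator for subunit 1 of complex IV, by 0.38 ± 0.097 (adjusted p = 0.0320, edgeR). The copper chaperone Sco2 fell, with -1.50 ± 0.33 there (adjusted p = 0.0129, edgeR) and -1.32 ± 0.33 against trained muscle (adjusted p = 0.0394, edgeR). Its level was low, at 1.58, 1.01 and 1.94 CPM in LD, 3.93, 3.66 and 3.69 CPM in trained and 5.20, 3.50 and 4.10 CPM in untrained muscle of 6 months. Cox10, another assembly factor of complex IV, rose by 0.53 ± 0.085 against trained muscle (adjusted p = 0.00217, edgeR). Of 7 regulators, 0 were called in any comparison, where the share of all genes called ran from 0% in training to 4.99% in LD against untrained muscle. The nuclear receptor Esrra, which activates genes of oxidative metabolism, had values of -0.25 ± 0.076 after training and 0.19 ± 0.076 after detraining, and detraining less training gave 0.44 ± 0.11 (adjusted p = 0.222, edgeR). Its coactivator Ppargc1a had -0.062 ± 0.39 after training.

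Markers of cell types differed with training too: 6 of the 11 lists were higher in trained than in untrained muscle of 6 months without overlap. Macrophage markers summed to 37.7 to 51.7 CPM in trained and 25.5 to 27.5 CPM in untrained muscle, fibro-adipogenic markers to 327 to 380.3 CPM in trained and 255 to 278 CPM in untrained muscle, and endothelial markers to 221 to 244 CPM in trained and 158 to 201 CPM in untrained muscle. Pericyte and smooth muscle markers summed to 386 to 427 CPM in trained and 334 to 339.7 CPM in untrained muscle, adipocyte markers to 104 to 120.4 CPM in trained and 97.1 to 102 CPM in untrained muscle, and markers of all fibres to 38433 to 42188 CPM in trained and 36404 to 36998 CPM in untrained muscle. The higher adipocyte sum rested on Fabp4 (means of 106 and 90.3 CPM). Lep, Adipoq, Plin1 and Cidec had lower means in trained muscle (0.174, 2.53, 1.78 and 2.23 against 1.78, 3.20, 2.48 and 2.56 CPM). Among markers of all fibres the mean of Acta1 was higher (23045 against 19212 CPM), that of Ckm nearly level (13711 and 13578 CPM) and that of Des lower (3618 against 3878 CPM). The sum of fast and slow fibre genes overlapped between trained and untrained muscle. Within it every trained library lay below every untrained one in Myh4 (25872 to 34282 against 34580 to 49004 CPM). In Myh1 every trained library lay above (12304 to 15578.5 against 10231 to 12101 CPM), and the other genes of that list overlapped. At 9 months 1 list separated, fibro-adipogenic markers, at 257 to 308 CPM in detrained and 324 to 332 CPM in untrained muscle. The part of these shifts in the values of the respiratory genes was not tested.

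The genes lie on 18 chromosomes of mm10. In the GENCODE M21 annotation of the same build, exons of 14 of the 46 overlap an exon of another gene, such as Atp5d with Cbarp, Cox4i1 with Emc8 and Cox6a2 with Itgad. Since the use of strand in the counting is not given, reads of such pairs cannot be told apart. Cox7a1 spans chr7:30184144-30186078 and Cox8b chr7:140898945-140900446, on the plus and minus strand. Atp5g1 spans chr11:96068852-96075670 on the minus strand. Values of 38 of the genes were not whole in some library, and those of Cox5b and Cox5b-ps, which resemble each other, are uncertain for that reason.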

How the data were processed

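Whole plantaris RNA was sequenced in 15 libraries, and the authors deposited 1 table of expected counts for 20406 genes, of which 26.1 to 31.2% of values per library were not whole. STAR 2.7.3a, Partek, DESeq2 and mm10 appear in the submitters' processing notes, which give no role or order for them. The counter and its use of strand are not stated there or in the labels. Expected counts were rounded to whole numbers. edgeR 4.0.16 in R 4.3.3 was fitted with TMM scaling, its filter on low counts and a robust quasi-likelihood test over 12 libraries (14919 genes), or over all 15 (15181 genes) for the LD comparisons. Calls were made at a Benjamini-Hochberg adjusted p under 0.05 over all genes. The log2 ratios of gene pairs were compared with a two-sided exact permutation test. DESeq2 1.42.0 and limma-voom (limma 3.58.1), other scalings and filters, a replicate block and leaving out each library were alternatives. The test was checked on simulated data. Counting depth limits the sparse genes.

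Exon lengths were merged coding-transcript exons of GENCODE M21, and promoters came from RefSeq, which held windows for 35 of the 46 genes. Members and gene lists were chosen with earlier results of these data known. Values in every library are given for the isoform pairs, for a fixed list of core subunits, for any member called, for the 3 members of smallest unadjusted p in each direction, and for the member of each complex with the largest absolute log2 fold change at an average log2 CPM of at least 2.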

Additional observations from a re-analysis of the deposited data

Results flagged for a closer look

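Atp5g1 was lower in LD than in trained muscle, with a log2 fold change of -0.39 and an adjusted p of 0.0230 in edgeR's quasi-likelihood test. It is listed here because both groups are titled as trained muscle of 6 months yet differ in a direct test. Its level was 107, 88.8 and 105 CPM in LD and 144, 124 and 127 CPM in trained muscle. The part of the library series in this difference was not tested. The treatment label calls the LD libraries sedentary. The share of the set called, 1 of 45, was close to the 2.4% of all genes called there. Leaving out some single libraries ended the call.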

How the results depend on the processing

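The number of the 45 genes called in untrained muscle of 9 against 6 months was 0 in edgeR, 1 with no filter on low counts, 4 in DESeq2 and between 0 and 2 when each library was left out. In LD against untrained muscle DESeq2 called 1, and in LD against trained muscle the count was between 0 and 1 when each library was left out. With the 9-month groups exchanged, as the treatment label has them, the age medians became -0.039 in complex II, -0.093 in III and -0.078 in V, and Sdhd became 0.023. The same exchange, in detraining less training, gave -0.039 for Atp5a1, -0.12 for Atp5e, 1.14 for Atp5g2, -0.26 for Atp5g3, -0.22 for Atp5k, -1.14 for Cox4i2, -0.13 for Cox5a, -0.11 for Cox6a1, 0.0015 for Cox7c, -0.16 for Cox8b, -0.016 for Sdha, -0.14 for Sdhd and -0.23 for Uqcrfs1, each of the opposite sign. When each library was left out of detrained against untrained muscle, the log2 values ran from -0.026 to 0.15 for Cox7a2 and from -0.12 to 0.085 for Uqcrb (both lowest without detrained replicate 1), from -0.061 to 0.28 for Cox6a1 (lowest without replicate 2) and from -0.22 to 0.022 for Cox7c (highest without replicate 3). In LD against trained muscle Atp5e ran from -0.18 to 0.025, the highest without LD replicate 5. With the LD libraries in the trained group the training values became 0.036 for Atp5a1, 0.10 for Atp5k, 0.081 for Cox5a and 0.0088 for Sdhd, and the log2 ratios -0.23 for Cox7a2l/Cox7a2 (exact permutation p = 0.0238) and -0.12 for Atp5g1/Atp5g3 (exact permutation p = 0.440). With the LD libraries in the untrained group the Atp5g1/Atp5g3 difference was 0.28 (exact permutation p = 0.0357). The cause of these changes was not tested. The p-values of these pooled ratios are unadjusted. In each such ratio the LD libraries did not overlap the group they were added to.

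Over all genes, edgeR called 0 in training, 3 in detraining, 4 in their difference and 2 between the ages, and DESeq2 112, 30, 111 and 58. In the LD comparisons edgeR called 757 against untrained and 365 against trained muscle, and DESeq2 1190 and 675. Deviations from the group means correlated between same-numbered libraries at -0.059, 0.096 and -0.0085 in training and 0.15, -0.089 and 0.095 in detraining. Not every library correlated best with its own number. With 3 libraries a group such deviations are tied to each other, so they cannot decide whether the numbers pair the libraries. The replicate block called 0 of the 45 genes, and 5, 8 and 6 of all genes in training, detraining and their difference. Depth limits Cox4i2, Atp5g2 and Cox6b2, the sparsest genes.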
